A study of Mus musculus with 15 samples.

Results

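The genes described here are 8 secreted proteases of the ADAMTS family (Adamts1, Adamts2, Adamts4, Adamts5, Adamts8, Adamts9, Adamts12 and Adamts15) and 2 large proteoglycans, aggrecan (Acan) and versican (Vcan). They were chosen by gene symbol, and all 10 were found, each under 1 gene ID, among 36727 genes measured in whole mouse hearts. The series comprises 15 hearts: 4 from WT sham, 4 from WT TAC, 3 from SIRT5OE sham and 4 from SIRT5OE TAC mice. Transverse aortic constriction (TAC) narrows the aorta and imposes pressure overload on the left ventricle, and sham mice had the surgery without the band. All were male littermates aged 4 to 8 months at surgery, and hearts were taken 4 weeks later. SIRT5OE mice carried a LoxP-STOP-LoxP-SIRT5 cassette in the Col1A1 locus, driven by the CAGGS promoter and derived from 1 embryonic stem cell clone. The STOP was removed with Sox2-Cre, so SIRT5, an NAD+-dependent lysine deacylase, was overexpressed in the whole body and not in 1 cell type. The comparisons ask how these matrix genes respond to pressure overload and whether SIRT5 overexpression alters that response.

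ADAMTS proteases are secreted metalloproteases that act on the extracellular matrix. Several of them (ADAMTS1, ADAMTS4, ADAMTS5, ADAMTS8, ADAMTS9 and ADAMTS15) can cleave the core proteins of hyaluronan-binding proteoglycans, of which versican is a component of the cardiac matrix and aggrecan is best known from cartilage. ADAMTS2 removes the amino-terminal propeptide of fibrillar procollagens, and ADAMTS12 can degrade cartilage oligomeric matrix protein. TIMP3 inhibits several of the proteases, and the endocytic receptor LRP1 clears ADAMTS4 and ADAMTS5 from the matrix.

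Values are normalized counts, which are read counts per gene scaled between libraries by the authors. The sum of these values over all genes lay between 56233957 and 61577670 in the WT TAC hearts, below the 63960360 to 74282028 of every other heart, and the part of this in the results was not tested. Sirt5 had 1574 to 2366 normalized counts in the 8 WT hearts and 30433 to 43932 in the 7 SIRT5OE hearts, so every library matched its genotype label. Of the hearts, WT TAC replicate 3 and SIRT5OE TAC replicate 3 stood apart within their groups for several of the genes below. Cardiomyocyte markers were summed over 6 genes (Myh6, Tnnt2, Actn2, Ryr2, Pln and Tnni3). Myh6 was the largest part (mean 1218220 of 2418480 in WT sham hearts). The paper describes a shift away from Myh6 in the failing heart, so the sum does not measure cardiomyocyte content alone. It was 1748500 in WT TAC replicate 3, the highest of the WT TAC hearts (the others were at 816584 to 1256640). In SIRT5OE TAC replicate 3 the same sum was 1430160, the lowest of its group (the others were at 1809080 to 2129030).

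In the mouse genome (GRCm38, GENCODE vM21) the 10 genes lie on 8 chromosomes, and 4 of them are in neighbouring pairs. Adamts1 (chr16:85793827-85803113, minus strand) and Adamts5 (chr16:85856173-85901828, minus strand) are 53059 bases apart. Adamts15 (chr9:30899155-30922452, minus strand) and Adamts8 (chr9:30942562-30963838, plus strand) are 20109 bases apart, and neither pair has another protein-coding gene between its members. The other proteases are Adamts2 (chr11:50602084-50807573, plus strand), Adamts4 (chr1:171250421-171260637, plus strand), Adamts9 (chr6:92772699-92943492, minus strand) and Adamts12 (chr15:11064790-11349231, plus strand). The proteoglycan genes are Acan (chr7:79053483-79115099, plus strand) and Vcan (chr13:89655312-89742509, minus strand). Genes on the opposite strand overlap Adamts2, Adamts4, Adamts8, Adamts9 and Vcan. Whether quantification used strand was not given in the sources used here, so reads from such partners cannot be separated with certainty.

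Promoter windows from RefSeq (GRCm38.p6) matched 6 of the 10 genes, Adamts1, Adamts2, Adamts9, Adamts12, Acan and Vcan. The windows of the 5 matched genes whose level rose in WT TAC hearts are printed below, chosen for that shared rise alone. Each holds the 250 bases before the annotated start, 5′ to 3′ on the gene's strand, with matches to the AP-1, TEAD, GC box and TATA motifs in capitals.
Adamts1 window: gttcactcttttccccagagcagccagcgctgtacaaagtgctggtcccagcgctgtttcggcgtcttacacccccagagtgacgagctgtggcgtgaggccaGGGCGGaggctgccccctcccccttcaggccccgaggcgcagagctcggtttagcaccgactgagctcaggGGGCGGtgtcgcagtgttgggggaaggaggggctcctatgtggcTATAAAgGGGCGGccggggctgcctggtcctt
Adamts2 window: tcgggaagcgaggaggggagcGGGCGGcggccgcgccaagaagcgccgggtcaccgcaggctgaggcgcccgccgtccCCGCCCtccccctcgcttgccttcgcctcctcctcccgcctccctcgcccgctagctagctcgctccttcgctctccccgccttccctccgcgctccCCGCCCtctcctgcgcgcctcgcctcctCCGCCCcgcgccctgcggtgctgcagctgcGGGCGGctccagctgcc
Adamts12 window: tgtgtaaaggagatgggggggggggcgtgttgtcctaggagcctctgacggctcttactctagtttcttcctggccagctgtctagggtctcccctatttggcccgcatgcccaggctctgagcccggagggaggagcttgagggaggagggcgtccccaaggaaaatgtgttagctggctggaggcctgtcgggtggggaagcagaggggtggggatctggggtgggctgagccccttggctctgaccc
Acan window: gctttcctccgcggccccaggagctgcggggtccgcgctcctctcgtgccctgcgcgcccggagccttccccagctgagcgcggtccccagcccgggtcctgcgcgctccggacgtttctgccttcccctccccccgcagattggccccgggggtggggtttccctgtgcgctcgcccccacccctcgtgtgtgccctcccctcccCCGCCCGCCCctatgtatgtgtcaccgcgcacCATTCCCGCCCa
Vcan window: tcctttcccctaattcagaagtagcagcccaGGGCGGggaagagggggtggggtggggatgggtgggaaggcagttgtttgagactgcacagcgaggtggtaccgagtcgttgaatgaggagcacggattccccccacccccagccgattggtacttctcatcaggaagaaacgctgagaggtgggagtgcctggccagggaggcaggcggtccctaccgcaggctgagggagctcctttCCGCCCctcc

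The motifs were searched as exact letters on both strands: TGANTCA for AP-1, GGAATG for TEAD, GTCTAGAC for SMAD, GGGCGG for the GC box, TATAAA for the TATA box, AGATAA for GATA factors, TGTGGT for RUNX and GGAAAA for NFAT. GC boxes were the most frequent match, with 3 in Adamts1, 5 in Adamts2, 3 in Acan, 2 in Vcan and 1 in Adamts9, and 32.7% of all 32851 windows of this length hold at least 1. Adamts1 was the only window of the 6 with a TATA match, which began 32 bases before the start (12.4% of all windows have one). Acan was the only window with the TEAD letters, beginning 12 bases before the start and sharing a base with a GC box (12.6% of all windows). The NFAT letters, which are not capitalized, occurred once each in Adamts1 and Adamts12 (20.4% of all windows). None of the 6 windows held the AP-1, SMAD, GATA or RUNX letters, which occur in 6.75%, 0.167%, 9.99% and 14% of all windows. These matches describe the letters of the windows and nothing was measured at them.

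Without pressure overload the genes differed widely in level. Per kilobase of the longest transcript, Adamts1 was the most abundant in WT sham hearts at 391 ± 39.3 normalized counts per kb (mean ± SD, n = 4), followed by Adamts9 at 192 ± 22.1, Adamts5 at 172 ± 4.47 and Adamts2 at 152 ± 11.5. Adamts9 and Adamts5 were within the spread of Adamts9. Vcan at 83.3 ± 24.2 and Adamts15 at 75.5 ± 9.84 per kb also lay within each other's spread. Adamts4 (19.3 ± 6.13), Adamts12 (17.4 ± 2.50) and Adamts8 (10.3 ± 2.89) were low, and Acan, at 0.448 ± 0.211 per kb, was close to 0. After TAC the order in WT hearts was Adamts1 (1153 ± 509), Adamts2 (663 ± 152) and Vcan (403 ± 109), ahead of Adamts9 (183 ± 32.1 per kb). Adamts4 was at 178 ± 152, and its own wide spread held the means of Adamts9, Adamts5 and Adamts8, so its place in this order is uncertain. Adamts5 (148 ± 21.3) and Adamts8 (146 ± 52.9 per kb) lay within each other's spread.

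**Figure D1:**
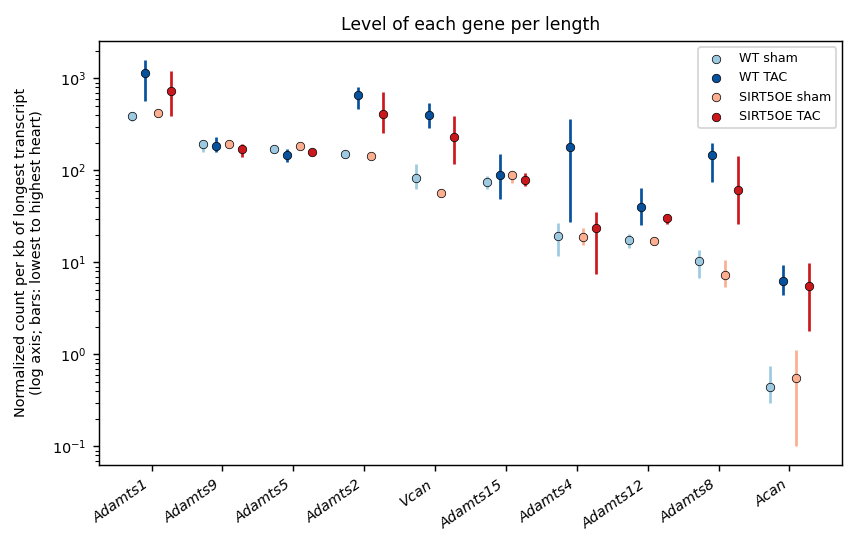
Mean normalized count per kb of the longest transcript (log axis) for each gene in each group, with bars from the lowest to the highest heart, genes ordered by their WT sham level. Adamts1 is at the top in all 4 groups, and Acan moves from 0.448 per kb in WT sham to 6.29 per kb in WT TAC hearts.

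In WT hearts, TAC raised 7 of the 10 genes: the proteases Adamts1, Adamts2, Adamts4, Adamts8 and Adamts12 and both proteoglycans. Adamts5, Adamts9 and Adamts15 did not pass the test, and no member fell. These are bulk libraries, so fewer cells of a type and less RNA per cell cannot be told apart. Over all 16690 genes tested with limma, 17.3% were higher and 16.5% lower at a Benjamini-Hochberg adjusted p under 0.05. All 7 also had an absolute log2 fold change over 1, the study's threshold for a differentially expressed gene, which 11.5% of all genes met in either direction. Acan passed the filter on low values only through its TAC hearts, since no sham heart reached the minimum of 10 normalized counts, so it had to differ to be tested. The median log2 fold change over the 10 genes was 1.77, or 1.44 without Acan, against -0.01 over all genes tested.

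Adamts8 had the largest fitted change of the proteases. It had 35.3, 24.6, 49.9 and 40.04 normalized counts in the 4 WT sham hearts and 515, 714, 269 and 622 in the 4 WT TAC hearts. The groups were far apart, and TAC replicate 3 was the lowest. The log2 fold change was 3.74 (SE 0.45, limma adjusted p = 4.72e-05), which is 13.4-fold on the scale of the normalized count plus 1.

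Adamts4 was the most uneven. It had 83.2, 118, 85.5 and 51.7 normalized counts in WT sham hearts and 379, 1609, 121 and 1016 in WT TAC hearts. Replicate 3 lay just above the highest sham heart, and replicate 2 was 13.3 times higher than replicate 3. The coefficient of variation in WT TAC was 85.5%. The log2 fold change was 2.67 (SE 0.63, limma adjusted p = 0.00399), and without WT TAC replicate 3 it was 3.38.

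Adamts1 had 1678, 1835, 2016 and 2109 normalized counts in WT sham and 4355, 7745, 2752 and 7664 in WT TAC hearts. The groups did not overlap, although TAC replicate 3 was much closer to sham than the others (log2 fold change 1.44, SE 0.33, limma adjusted p = 0.00315). Adamts2, the procollagen processing enzyme, had 1012, 1204, 1140 and 1071 normalized counts in sham and 4494, 5823, 3397 and 5554 in TAC hearts. All 4 TAC hearts were well above every sham heart, at a log2 fold change of 2.09 (SE 0.24, limma adjusted p = 3.4e-05), the smallest adjusted p of the 10 genes. Adamts12 had 125, 177, 148 and 146 normalized counts in sham and 310, 554, 219 and 280 in TAC hearts (log2 fold change 1.11, SE 0.22, limma adjusted p = 0.00149). Its TAC hearts were again all above the sham hearts, with replicate 2 apart at the top.

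The substrates rose as well. Vcan had 790, 893, 1470 and 987 normalized counts in WT sham and 5338, 6736, 4383 and 3579 in WT TAC hearts. The lowest TAC heart was above the highest sham heart, and the log2 fold change was 2.28 (SE 0.29, limma adjusted p = 6.69e-05). Acan had 3.23, 2.26, 2.19 and 5.51 normalized counts in WT sham and 68.4, 38.0, 32.7 and 46.0 in WT TAC hearts. Its fitted log2 fold change was 3.47 (SE 0.60, limma adjusted p = 0.000492), and since the sham values are near 0 it depended on the pseudocount and scaling, ranging from 2.60 to 3.65 over the alternatives that kept all hearts. Of 5 cartilage markers, Matn1, Matn3 and Col9a1 were at or near 0 in all groups (at most 8.30 normalized counts in any heart), and Col2a1, the cartilage collagen gene, was at 0 to 10.6 in sham and 1.02 to 29.01 in TAC hearts, which did not pass the test. The cartilage transcription factor gene Sox9 was higher after TAC, at 442 ± 120 against 125 ± 37.1 normalized counts in WT hearts (n = 4 each, log2 fold change 1.83, limma adjusted p = 0.00104).

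The 3 proteases that did not pass the test were expressed in every heart. Adamts5 had 1798, 1909, 1874 and 1835 normalized counts in WT sham and 1713, 1852, 1339 and 1478 in WT TAC hearts, with overlapping groups (log2 fold change -0.23, SE 0.10, limma adjusted p = 0.0851). Without WT TAC replicate 2 the value was -0.30 and the limma adjusted p 0.0262. Adamts9 had 1652, 1658, 1282 and 1570 in sham and 1290, 1834, 1287 and 1446 in TAC hearts (95% confidence interval of the log2 fold change -0.36 to 0.20). Adamts15 had 374, 511, 434 and 472 in sham and 902, 524, 289 and 387 in TAC hearts, so its TAC values fell on both sides of the sham range (95% confidence interval -0.44 to 0.66).

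**Figure D2:**
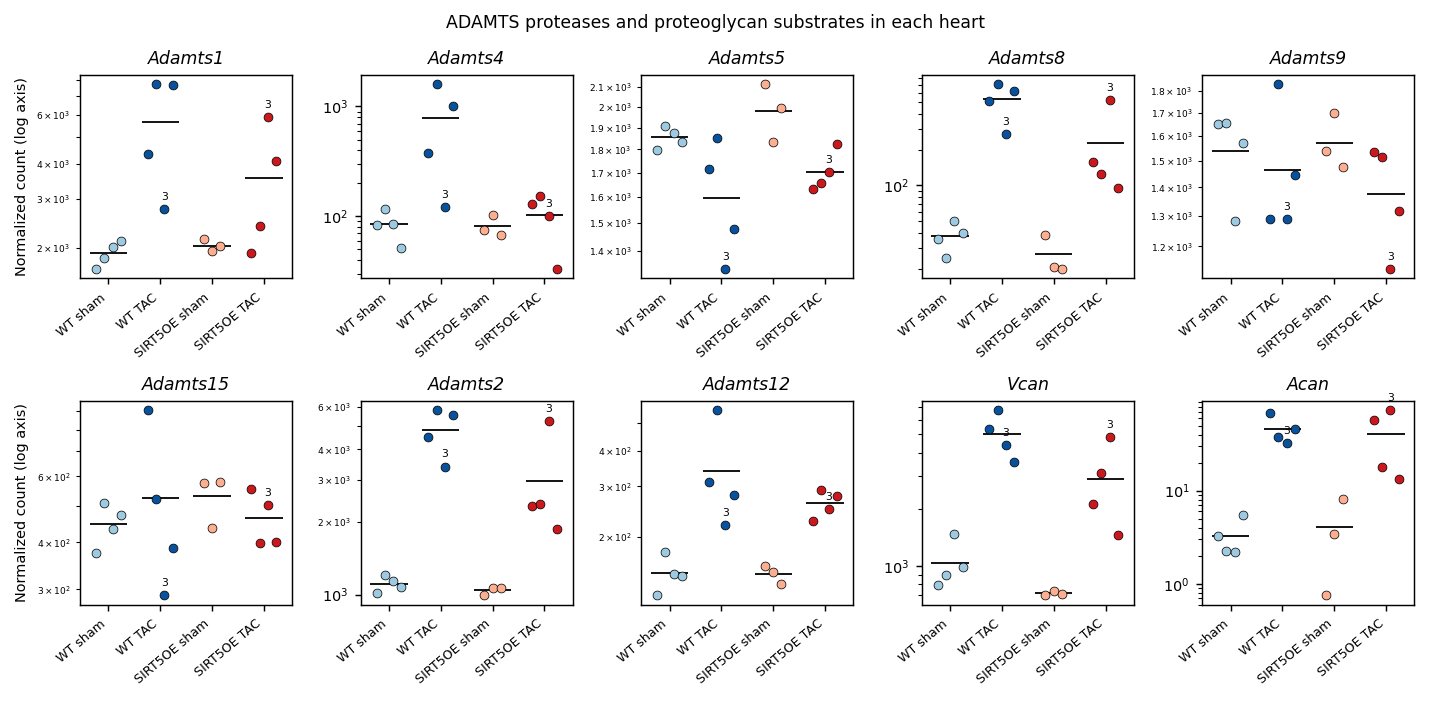
Normalized count of each gene (log axis, a range of its own in each panel) in each heart of the 4 groups, with points for hearts and lines for group means. The digit 3 marks replicate 3 of each TAC group, which is the lowest WT TAC heart for 9 of the 10 genes (all but Vcan) and the highest SIRT5OE TAC heart for Adamts1, Adamts2, Adamts8, Acan and Vcan.

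In SIRT5OE hearts TAC raised 4 of the 10 genes, Adamts2, Adamts8, Acan and Vcan, each by more than 1 on the log2 scale. Over all genes 3.12% were higher and 1.86% lower at the adjusted p, and 1.98% met the fold threshold as well in either direction. The median log2 fold change of the 10 genes was 0.74 (0.67 without Acan) against -0.01 over all genes. That a gene passed in WT and not in SIRT5OE hearts is not a test of a difference, which is given by the interaction below. The comparison rests on 3 sham hearts against 4 TAC hearts.

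Adamts8 had 38.3, 20.7 and 19.8 normalized counts in SIRT5OE sham and 159, 124, 523 and 94.3 in SIRT5OE TAC hearts. The TAC hearts were all higher, with replicate 3 far above the other 3 (log2 fold change 2.77, SE 0.49, limma adjusted p = 0.00627). Adamts2 showed the same layout, with 992, 1067 and 1062 in sham and 2340, 2386, 5225 and 1866 in TAC hearts (log2 fold change 1.38, SE 0.26, limma adjusted p = 0.00833). Vcan had 697, 734 and 711 in sham and 2143, 3112, 4824 and 1468 in TAC hearts. Its sham hearts were nearly identical to each other and every TAC heart was higher (log2 fold change 1.88, SE 0.31, limma adjusted p = 0.00548).

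Acan had 0.75, 3.46 and 8.16 normalized counts in SIRT5OE sham and 57.2, 17.8, 73.3 and 13.4 in SIRT5OE TAC hearts. The groups did not overlap, at a fitted log2 fold change of 2.99 (SE 0.65, limma adjusted p = 0.0181). The call was lost without SIRT5OE sham replicate 1 (2.36, adjusted p = 0.0984), SIRT5OE sham replicate 2 (3.04, adjusted p = 0.0556) or SIRT5OE TAC replicate 3 (2.59, adjusted p = 0.0609), and when only the SIRT5OE groups were fitted (2.99, adjusted p = 0.0555), all by limma.

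Adamts12 had 158, 151 and 136 normalized counts in SIRT5OE sham and 227, 290, 251 and 277 in SIRT5OE TAC hearts. These groups did not overlap, but the gene missed the threshold (log2 fold change 0.81, SE 0.24, limma adjusted p = 0.0679), and it was called without WT TAC replicate 2 (limma adjusted p = 0.0164) or replicate 3 (0.035), and when only the SIRT5OE groups were fitted (0.0336), which change only the estimate of the spread and the adjustment. Adamts1 had 2151, 1944 and 2024 in sham and 1914, 2394, 5893 and 4086 in TAC hearts, so 1 of 4 TAC hearts was below the sham range (log2 fold change 0.67, 95% confidence interval -0.08 to 1.41, limma adjusted p = 0.282). Adamts4 had 75.2, 104 and 68.3 in sham and 129, 153, 99.8 and 33.1 in TAC hearts. The TAC hearts spanned the sham range, with a log2 fold change of 0.15 and a wide 95% confidence interval of -1.29 to 1.59 (limma adjusted p = 0.926).

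Adamts5 had 2117, 1831 and 1996 normalized counts in SIRT5OE sham and 1633, 1656, 1701 and 1823 in SIRT5OE TAC hearts. The TAC hearts lay below the sham hearts, and the difference did not pass the test (log2 fold change -0.22, limma adjusted p = 0.246). Adamts9 had 1537, 1697 and 1475 in sham and 1536, 1516, 1130 and 1315 in TAC hearts, and Adamts15 had 577, 437 and 581 in sham and 556, 398, 504 and 402 in TAC hearts. Both overlapped between the groups, at limma adjusted p = 0.444 and 0.729.

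**Figure D3:**
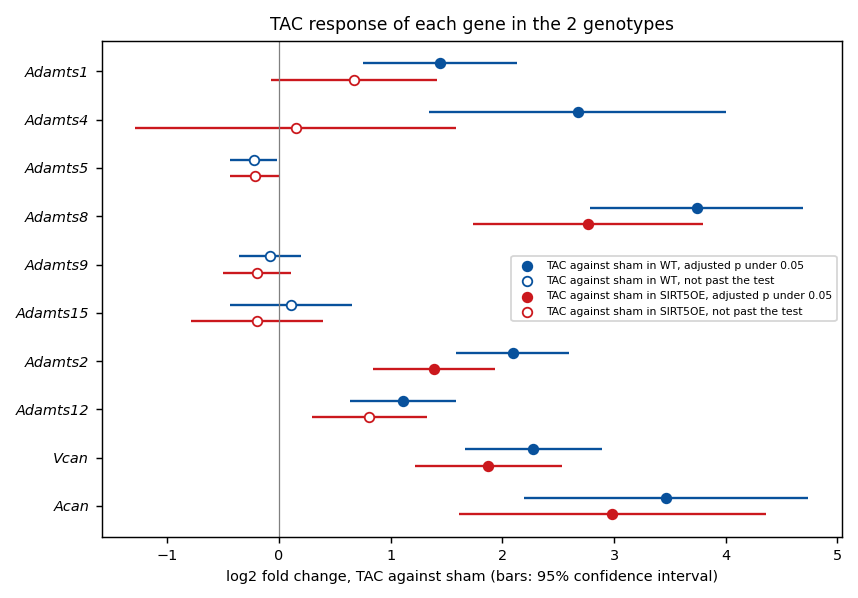
Log2 fold change of each gene after TAC against sham, in WT (blue) and SIRT5OE (red) hearts, with bars for the 95% confidence interval and filled points where the limma adjusted p was under 0.05. Filled points are 7 in WT and 4 in SIRT5OE hearts, and the fitted change was smaller in SIRT5OE hearts for Adamts1 (0.67 against 1.44), Adamts2 (1.38 against 2.09), Adamts4 (0.15 against 2.67) and Adamts8 (2.77 against 3.74).

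In sham hearts the genotypes could not be told apart for any of the 10 genes. None was called and none had an unadjusted p under 0.05 in limma, with 0.018% of all genes called. The smallest unadjusted p was that of Vcan, which had 790 to 1470 normalized counts in WT sham and 697 to 734 in SIRT5OE sham hearts (log2 fold change -0.49, 95% confidence interval -1.16 to 0.17, limma adjusted p = 1). The intervals were narrow for Adamts5 (-0.13 to 0.32) and Adamts9 (-0.27 to 0.34), and wide for Adamts4 (-1.44 to 1.43) and Acan (-1.36 to 1.39). All 4 groups share 1 estimate of spread per gene, so these widths also draw on the TAC hearts. For Adamts4 the coefficient of variation was 31.8% in WT sham and 22.7% in SIRT5OE sham hearts, against 85.5% in WT TAC.

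Under TAC, Adamts4 was the only one of the 10 genes called between the genotypes. It was lower in SIRT5OE TAC hearts (129, 153, 99.8 and 33.1 normalized counts) than in WT TAC hearts (379, 1609, 121 and 1016). The groups overlapped, because WT TAC replicate 3 lay below SIRT5OE TAC replicates 1 and 2. The log2 fold change was -2.53 (SE 0.63, 95% confidence interval -3.86 to -1.20, limma adjusted p = 0.0345). Over all genes 3.43% were lower and 3.8% higher at the adjusted p, and 1.91% met both thresholds in either direction, and 1 call among 10 is too few to set the members apart from that background. The call was lost without WT TAC replicate 2 (-1.99, limma adjusted p = 0.0917), WT TAC replicate 4 (-2.21, 0.113), SIRT5OE TAC replicate 1 (-2.70, 0.0562), SIRT5OE TAC replicate 2 (-2.78, 0.076) or SIRT5OE TAC replicate 4 (-2.05, 0.13), while without WT TAC replicate 3 the value was -3.23 (limma adjusted p = 0.00187). The spread is shared with the sham groups, and with the TAC groups fitted alone the limma adjusted p of Adamts4 was 0.184. The WT TAC hearts in this comparison are the same as those set against WT sham hearts above.

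Adamts2, Adamts8 and Vcan were just outside the threshold in the same direction. Adamts2 was at 4817 ± 1107 normalized counts in WT TAC and 2954 ± 1532 in SIRT5OE TAC hearts (n = 4 each, log2 fold change -0.80, limma adjusted p = 0.0527). Adamts8 was at 530 ± 192 and 225 ± 200.1 (-1.49, limma adjusted p = 0.0535), and Vcan at 5009 ± 1357 and 2887 ± 1457 (-0.89, limma adjusted p = 0.064). In each of the 3 genes SIRT5OE TAC replicate 3 had a level inside the WT TAC range, while the other 3 SIRT5OE TAC hearts were below all WT TAC hearts. Without SIRT5OE TAC replicate 3, limma called Adamts2 (-1.11, adjusted p = 0.00175), Adamts8 (-2.01, 0.00372), Vcan (-1.19, 0.00771) and Adamts1 (-0.96, 0.0417). Without WT TAC replicate 3 it called the same genes at adjusted p = 0.0131, 0.0135, 0.0466 and 0.0295. With either heart left out 5 of the 10 genes were lower, and without WT TAC replicates 2 or 4 or SIRT5OE TAC replicates 1, 2 or 4 none was called. Over all genes, 3372 of 16621 were called in either direction without WT TAC replicate 3 and 2721 of 16622 without SIRT5OE TAC replicate 3. Only 5 to 192 were called in the refits with no member called. The count of members thus moved with the calls over all genes.

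SIRT5OE TAC replicate 3 did not have high levels of every gene that rose in WT TAC hearts. It was the highest of its group for Adamts1 (5893), Adamts2 (5225), Adamts8 (523), Acan (73.3) and Vcan (4824 normalized counts). Its Adamts4 level was 99.8, within the range of the SIRT5OE sham hearts, and its Adamts12 level of 251 was in the middle of its group.

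The other genes had log2 fold changes between the TAC groups of 0.10 for Adamts5, -0.09 for Adamts9, -0.06 for Adamts15, -0.30 for Adamts12 and -0.47 for Acan, at limma adjusted p from 0.397 to 0.904. Their intervals were tightest for Adamts5 (-0.10 to 0.31) and widest for Acan (-1.74 to 0.80). The number of calls over all genes in this comparison was 1208 with every heart and moved between 5 and 3372 when 1 heart was left out.

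**Figure D4:**
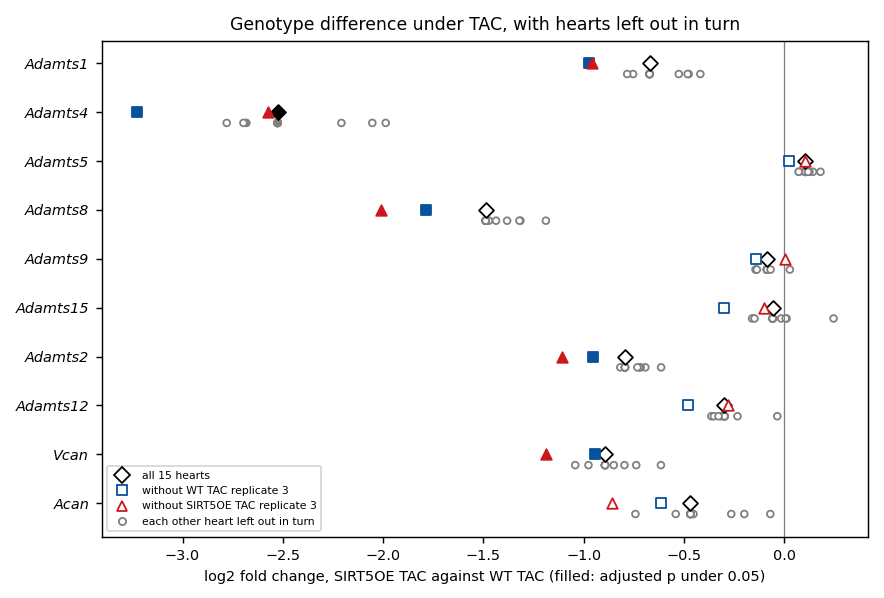
Log2 fold change of each gene in SIRT5OE TAC against WT TAC hearts, with all 15 hearts (diamonds), without WT TAC replicate 3 (squares), without SIRT5OE TAC replicate 3 (triangles) and without each other heart in turn (circles). Filled symbols have a limma adjusted p under 0.05, and of the 10 diamonds only that of Adamts4 (-2.53) is filled.

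The interaction compares the TAC response of SIRT5OE hearts with that of WT hearts. None of the 10 genes was called by limma, and 0% of all genes were. Adamts4 was the 1 gene with an unadjusted p under 0.05 (-2.52, SE 0.92, 95% confidence interval -4.48 to -0.57, limma adjusted p = 0.349). The values of Adamts1 (-0.77), Adamts2 (-0.71) and Adamts8 (-0.97) had limma adjusted p of 0.478, 0.391 and 0.52. The difference between genotypes in the TAC response was thus not shown for any of these genes with 3 to 4 hearts a group.

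The ratio between neighbouring genes passed the test after TAC in 3 of the 4 comparisons made. These ratios use the same genes and hearts as above, so they restate those changes and are not separate support. The log2 ratio of Adamts1 to Adamts5 was 0.04 ± 0.14 in WT sham and 1.71 ± 0.62 in WT TAC hearts (n = 4 each), a difference of 1.67 (two-sided exact permutation test p = 0.0286, adjusted over 4 tests 0.0381). In SIRT5OE hearts it was 0.04 ± 0.04 (n = 3) and 0.93 ± 0.70 (n = 4), a difference of 0.89 (exact permutation p = 0.0857, adjusted 0.0857). Those groups did not overlap either (0.02 to 0.09 and 0.23 to 1.79), and the ratios were not compared between genotypes. The log2 ratio of Adamts8 to Adamts15 went from -3.61 ± 0.54 to 0.05 ± 0.66 in WT (n = 4 each, exact permutation p = 0.0286, adjusted 0.0381) and from -4.39 ± 0.48 (n = 3) to -1.38 ± 0.97 (n = 4) in SIRT5OE hearts (exact permutation p = 0.0286, adjusted 0.0381). The smallest p these group sizes allow is 0.0286. In the adjacent pairs, then, Adamts1 and Adamts8 rose in WT hearts while their neighbours did not pass the test.

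**Figure D5:**
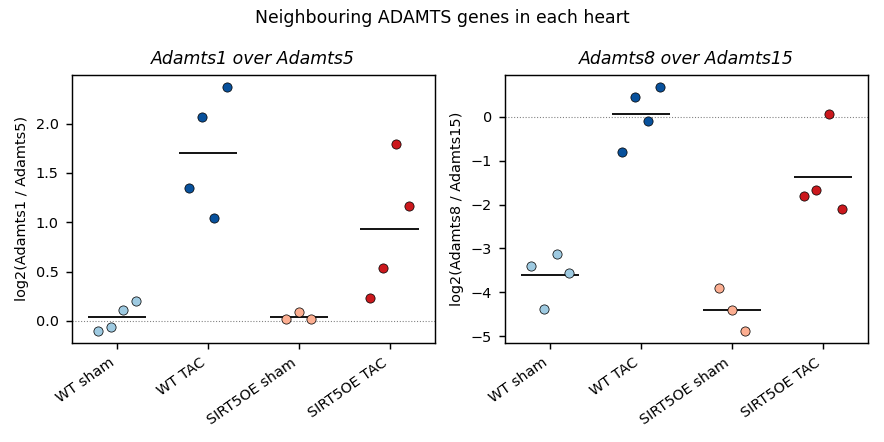
Log2 ratio of the normalized counts of adjacent ADAMTS genes in each heart, with lines for group means: Adamts1 over Adamts5 (left) and Adamts8 over Adamts15 (right). The WT TAC hearts lie above the WT sham hearts in both panels, and in the left panel the SIRT5OE TAC hearts reach from 0.23 to 1.79.

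The remaining members of the pathway were read from lists of genes. Alternative settings were not run for each gene of these lists or for the cell type markers. Over all genes, calls between the TAC groups fell from 1208 to 3 when only those groups were fitted. They moved between 5 and 3372 with 1 heart left out, so the calls between the TAC groups named below were not shown to hold in every fit. Of 11 other ADAMTS proteases 9 passed the filter, and in WT hearts TAC raised 2 and lowered 2, against 17.3% and 16.5% of all genes. Adamts20, another versican-cleaving protease, rose from 10.05 ± 8.52 to 173 ± 62.5 normalized counts (n = 4 each, log2 fold change 4.22, limma adjusted p = 6.41e-05) and was lower with SIRT5 overexpression under TAC, at 47.6 ± 34.4 (n = 4, -1.98, limma adjusted p = 0.0404). Adamts7, the closest relative of Adamts12, went the opposite way to it, from 1251 ± 312 to 434 ± 110 in WT hearts (n = 4 each, -1.53, limma adjusted p = 6.18e-05). It also fell in SIRT5OE hearts, from 1319 ± 130 (n = 3) to 645 ± 90.9 (n = 4, -1.04, limma adjusted p = 0.0122), and was the only one of the 9 called there (1.86% of all genes were lower). Adamts3, a procollagen processing enzyme related to Adamts2, fell in WT hearts (-0.91, limma adjusted p = 0.0236).

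Of 6 ADAMTS-like proteins, which lack the protease domain, TAC raised 2 in WT and 1 in SIRT5OE hearts, against 17.3% and 3.12% of all genes, counts too small to set the list apart. Adamtsl2 rose from 544 ± 179 to 3419 ± 767 normalized counts in WT hearts (n = 4 each, log2 fold change 2.68, limma adjusted p = 2.32e-05) and from 405 ± 65.9 (n = 3) to 2090 ± 1011 (n = 4) in SIRT5OE hearts (2.26, limma adjusted p = 0.00235). Adamtsl5 rose in WT hearts (0.82, limma adjusted p = 0.000352) and under TAC was lower in SIRT5OE than in WT hearts (-0.52, limma adjusted p = 0.0376).

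Vcan and Acan bind hyaluronan, and of 15 genes for hyaluronan metabolism and for hyaluronan-binding partners 10 passed the filter. In WT hearts TAC raised 6 and lowered 1, in SIRT5OE hearts it raised 1, and between the TAC groups 1 was lower in SIRT5OE. Over all genes 17.3% rose and 16.5% fell in WT hearts, 3.12% rose in SIRT5OE hearts and 3.43% were lower between the TAC groups, and 1 of 10 is too few to set against the last shares. The hyaluronan receptor gene Cd44 rose from 525 ± 90.2 to 2530 ± 1400 normalized counts in WT hearts (n = 4 each, log2 fold change 2.08, limma adjusted p = 0.000248). Cemip, which takes part in hyaluronan breakdown, rose in both genotypes (3.67 in WT, limma adjusted p = 0.000908, and 2.91 in SIRT5OE, 0.0351) from sham levels of 0 to 5.37 normalized counts. Like Acan, Cemip passed the filter only through its TAC hearts, so it had to differ to be tested. Has1, also among the 6 raised, likewise needed its TAC hearts to pass the filter. The hyaluronidase gene Hyal2 rose in WT hearts (0.80, limma adjusted p = 0.000547) and under TAC was lower in SIRT5OE than in WT hearts (-0.63, limma adjusted p = 0.0324).

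The 3 hyaluronan synthases did not move as a group. In WT hearts Has1 rose (log2 fold change 3.02, limma adjusted p = 0.00381, from 6.28 ± 4.83 to 72.2 ± 53.5 normalized counts, n = 4 each), Has3 fell (-0.76, limma adjusted p = 0.0305), and Has2 had a value of 0.87 (limma adjusted p = 0.0516). In SIRT5OE hearts none passed the test (limma adjusted p = 0.369, 0.294 and 0.883 for Has1, Has2 and Has3), nor between the TAC groups (0.255, 0.871 and 0.331). In sham hearts all 3 had a limma adjusted p of 1, and in the interaction 0.444, 0.87 and 0.365.

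Of 15 tested genes for chondroitin sulfate assembly, the sugar chains that versican and aggrecan carry, TAC raised 9 in WT hearts and none fell, where 17.3% of all genes rose. In SIRT5OE hearts none was called by limma, with 4 at an unadjusted p under 0.05, and at the 3.12% of all genes that rose there a count of 0 of 15 says nothing about the list. Between the TAC groups 2 were lower in SIRT5OE (3.43% of all genes). Chpf, a chondroitin polymerizing factor, rose from 961 ± 46.6 to 2535 ± 821 normalized counts in WT hearts (n = 4 each, log2 fold change 1.34, limma adjusted p = 0.000535), and reached a lower level in SIRT5OE TAC hearts, 1446 ± 553 (n = 4, -0.83, limma adjusted p = 0.0462). The chondroitin sulfotransferase genes Chst11 (0.93, limma adjusted p = 0.00078) and Chst12 (1.00, limma adjusted p = 0.00213) also rose in WT hearts, and Chst11 was lower in SIRT5OE than in WT hearts under TAC (-0.60, limma adjusted p = 0.047). The median log2 fold change of the list was 0.63 in WT and 0.38 in SIRT5OE hearts, against -0.01 over all genes in both.

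Of 13 genes for inhibition, processing and clearance of ADAMTS proteases, TAC raised 5 and lowered 3 in WT hearts and raised 2 in SIRT5OE hearts, and between the TAC groups 3 were lower in SIRT5OE. The shares over all genes were 17.3% and 16.5% in WT, 3.12% higher in SIRT5OE and 3.43% lower between the TAC groups, so 3 of 13 lower in WT is near the background. Timp3, the ADAMTS inhibitor, had high levels that did not pass the test, at 12894 ± 1406 normalized counts in WT sham and 14311 ± 1608 in WT TAC hearts (n = 4 each, limma adjusted p = 0.479) and 13407 ± 1169 (n = 3) and 17989 ± 4862 (n = 4) in SIRT5OE sham and TAC hearts (limma adjusted p = 0.179). Between the genotypes Timp3 had a limma adjusted p of 1 in sham hearts, 0.207 under TAC and 0.65 in the interaction. Timp1, another metalloproteinase inhibitor, rose from 89.3 ± 8.41 to 7855 ± 7404 in WT hearts (n = 4 each, log2 fold change 5.73, limma adjusted p = 5.88e-05) and was lower in SIRT5OE TAC hearts at 1010 ± 881 (n = 4, -2.70 against WT TAC, limma adjusted p = 0.0383), where it was still above SIRT5OE sham (3.10, limma adjusted p = 0.0311).

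Lrp1, the clearance receptor, rose from 6701 ± 694 to 21077 ± 8964 normalized counts in WT hearts (n = 4 each, log2 fold change 1.57, limma adjusted p = 0.000422). In SIRT5OE hearts it went from 5955 ± 283 (n = 3) to 11069 ± 4828 (n = 4), which did not pass the test (0.80, limma adjusted p = 0.111), and under TAC it was lower in SIRT5OE than in WT hearts (-0.93, limma adjusted p = 0.0476). For Lrp1 the limma adjusted p was 1 between the sham groups and 0.403 for the interaction. Fbln2, a matrix glycoprotein that binds versican, rose in both genotypes (2.08 in WT, limma adjusted p = 4.56e-05, and 1.34 in SIRT5OE, 0.0126) and under TAC was lower in SIRT5OE than in WT hearts (-0.91, limma adjusted p = 0.0421). No gene of these 5 lists was called by limma between the sham groups, where none had an unadjusted p under 0.05, or in the interaction, where 1, 2, 3, 2 and 5 genes of the lists in the order given did.

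Cardiomyocyte, fibroblast and macrophage markers moved with TAC in WT hearts. Over all genes 17.3% were higher and 16.5% lower in WT hearts, 3.12% and 1.86% in SIRT5OE hearts, and 3.8% and 3.43% between the TAC groups. A count of 1 in a list of 3 to 6 markers is too few to set against these shares. In WT hearts 5 of 6 cardiomyocyte markers were lower and 1, Actn2, was higher. Their summed level, of which Myh6 was the largest part, was 2179520 to 2656380 normalized counts in sham and 816584 to 1748500 in TAC hearts. Of the same 6 in SIRT5OE hearts 0 were called by limma and 4 had an unadjusted p under 0.05 (2170430 to 2332800 and 1430160 to 2129030). Of 6 fibroblast markers 4 were higher in WT hearts, with sums of 87889 to 99457 in sham and 96068 to 123527 in TAC hearts. In SIRT5OE hearts 2 of the 6 were higher (89424 to 104879 and 99951 to 119638), and between the TAC groups 0 of 6 were called. Of 5 macrophage markers 4 were higher in WT hearts (5534 to 6881 and 9104 to 10732) and 1 in SIRT5OE hearts (5409 to 6262 and 6923 to 9442), and 1, C1qa, was lower in SIRT5OE between the TAC groups. Of 3 endocardial markers 1 was higher in WT hearts, and their sum was 1408 to 1902 in sham and 1939 to 3046 in TAC hearts (SIRT5OE, 0 of 3 called by limma, 1 at an unadjusted p under 0.05, 1225 to 2188 and 1976 to 2842). Of 6 pericyte and smooth muscle markers 1 was higher and 1 lower in WT hearts (65463 to 87338 in sham and 35979 to 70054 in TAC hearts), and of 5 endothelial markers 1 was lower (39607 to 42952 and 31832 to 43050). The 6 fibroblast markers had a median log2 fold change of 0.40 in WT hearts, and 8 genes of activated fibroblasts a median of 5.08, with 7 of the 8 higher in each genotype (Cilp by 5.23 and 3.95 on the log2 scale in WT and SIRT5OE hearts, limma adjusted p = 1.11e-05 and 0.00155) and 4 lower in SIRT5OE between the TAC groups (Meox1 by -1.45, limma adjusted p = 0.0289). The part of these cell types in the changes of the 10 genes was not tested.

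For each of the 7 genes called after TAC, the genes of most similar pattern were taken by Pearson's r of log2 values over the 15 hearts, which share the contrast of TAC and sham. Adamts2 was most like Igfbp7, Fbn1 and Col1a2 (r of 0.99 or more), Adamts8 most like Tnfrsf11b, Pdlim1 and Col8a2 (0.99 each), and Vcan most like Cmklr1, Arl4c and Mxra8 (0.97 each). Adamts1 was most like Stc1 (0.98), Apold1 (0.97) and Acvr1 (0.96). Adamts4 was most like Gfpt2 (0.96), Pik3r5 (0.94) and Creb3l1 (0.94). Adamts12 was most like Tlr4 (0.94), Slc25a24 (0.94) and Gnai3 (0.93), and Acan most like Sfrp2, Adamtsl2 and Itih2 (0.94 each).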

How the data were processed

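Total RNA from 15 whole hearts was depleted of ribosomal RNA and sequenced, 1 library per heart. The authors pseudoaligned the reads with kallisto (0.43.1 in the submitters' processing notes, while the paper gives another version) to an Ensembl mouse cDNA set (the notes name mm10), summed transcripts to genes with tximport and normalized with DESeq2. The deposited signal is therefore a normalized count per gene, not a whole read count (3.25% to 4.57% of values in a library were whole multiples of a read step within 0.02), so neither a count model nor counting intervals were applied, and precision comes from the number of hearts.

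Genes with at least 10 normalized counts in at least 3 hearts were kept (16690 of 36727). log2(normalized count + 1) was modelled as 4 group means over all hearts with lmFit and eBayes (trended prior variance) of limma 3.58.1, run in R 4.3.3. The groups share 1 estimate of spread per gene, so the SE and interval of a comparison also draw on hearts outside it. P-values were adjusted by Benjamini-Hochberg over the kept genes, and a gene was called at an adjusted p under 0.05. Fold changes are on the log2(normalized count + 1) scale, which understates changes of low genes. Per-kilobase levels used the longest transcript of GENCODE vM21. Exact permutation tests over hearts, two-sided, were applied to the ratios of neighbouring genes.

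Named are the 10 genes, the 3 genes of smallest adjusted p among those called in each list and comparison, and Timp3, Lrp1, Has1, Has2 and Has3 throughout. The activated fibroblast list serves as a reference, and 1 gene of it is named per contrast. The 10 genes and all lists were chosen with earlier results of these data known, and the study itself names some of them, so no list is independent support. The fit was tested on simulated data. Results were recomputed with quantile normalization, with a filter at 50 normalized counts or none, with pseudocounts of 0.5 or 5, without the trend, on only the groups being compared, with replicate number as a block, and after leaving out every heart in turn. No pair of libraries held identical values. A gene that overlaps one of the 10 is not reported here. Plots were made with matplotlib.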

Additional observations from a re-analysis of the deposited data

Results flagged for a closer look

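The 10 genes were examined in the 3 groups of 4 hearts for a heart far from the rest, 30 sets of values in all, and 2 stood out by Dixon's criterion. Chance alone would flag about 1 of 20 sets, so 2 of 30 is near that rate. Both were SIRT5OE TAC replicate 3: its Adamts2 level was 5225 normalized counts against 1866 to 2386 in the other 3 hearts of the group, and its Adamts8 level was 523 against 94.3 to 159. The 2 flags are not separate, since both come from the same heart. The r of 0.85 between Adamts2 and Adamts8 for deviations from group means includes that heart, so it does not show that they vary together without it. The same heart had 65000 normalized counts over 6 pericyte and smooth muscle markers and 1430160 over 6 cardiomyocyte markers, the lowest of its group for both, and 119638 over 6 fibroblast markers, the highest. It was also the lowest for the endothelial sum (34309) and the highest for the endocardial sum (2842). Its sums of cartilage, erythroid, lymphocyte and atrial cardiomyocyte markers were the highest too, and those of macrophage and mesothelial markers lay in between. The part of these in its Adamts2 and Adamts8 levels was not tested.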

How the results depend on the processing

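The number of the 10 genes called in SIRT5OE TAC against WT TAC depended on the processing. It was 1 as reported, 2 with a pseudocount of 5 and 3 with the stricter filter. It was 0 with no filter, with the compared groups alone, with the replicate block or without the mean-variance trend. Leaving out single hearts moved it from 0 to 5. Over all genes the calls were 1208 of 16690 as reported, 1278 with the pseudocount of 5 and 1468 of 13808 with the stricter filter. They fell to 231 of 26385 with no filter, 3 with the groups alone, 20 with the block and 42 without the trend. A count of 0 of 10 there says nothing particular to these genes. The limma adjusted p of Adamts4 in SIRT5OE TAC against WT TAC was 0.0551 with no filter, 0.184 with the groups alone, 0.064 with the replicate block and 0.0686 without the trend. TAC against sham kept 7 to 8 calls in WT and 3 to 5 in SIRT5OE hearts with 1 heart left out, and the sham comparison and the interaction stayed at 0. Over all genes TAC against sham had 4698 to 6312 calls in WT and 126 to 1201 in SIRT5OE hearts in those refits. The hearts' replicate numbers do not pair them: deviations of same-numbered hearts from their group means correlated at -0.298 to 0.078.

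Over the 10 genes and 5 comparisons, 1078 values under an alternative kept their direction and side of the threshold, 15 came to pass it, 13 ceased to and 34 changed sign, none of these past the threshold. In sham hearts the sign turned for Adamts4 with quantile normalization (0.0043), for Adamts12 with the replicate block (-0.0096), and for Acan with a pseudocount of 0.5 (-0.036), quantile normalization (-0.20) and the replicate block (-0.040). With single hearts left out, values crossed 0 in sham hearts for Adamts4 (-0.22 to 0.17), Adamts9 (-0.053 to 0.076), Adamts12 (-0.077 to 0.090) and Acan (-0.56 to 0.64), after TAC for Adamts15 in WT (-0.19 to 0.35) and Adamts4 in SIRT5OE (-0.10 to 0.62), between the TAC groups for Adamts9 (-0.14 to 0.027) and Adamts15 (-0.30 to 0.24), and in the interaction for Adamts5 (-0.070 to 0.086) and Acan (-1.11 to 0.089). The cause was not tested. Low levels limit Acan in sham hearts, and 3 to 4 hearts a group limit every comparison. The alternatives were run for the 10 genes, not for each gene of the lists.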

Other observations

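Among the 10 genes, Adamts2, Adamts8 and Vcan varied together most closely. Over the 15 hearts, Pearson's r of log2 values was 0.98 for Adamts2 with Adamts8, 0.96 for Adamts2 with Vcan and 0.96 for Adamts8 with Vcan. These points share the contrast of TAC and sham, and after each heart's value was taken as a deviation from its group mean the r was 0.85, 0.70 and 0.68. These r include SIRT5OE TAC replicate 3, which was far from its group for Adamts2 and Adamts8, and were not recomputed without it. Adamts5 and Adamts12 showed the opposite layout, with r of -0.35 over the hearts and 0.80 for the deviations, so hearts of a group with more Adamts12 tended to have more Adamts5 although Adamts12 alone rose with TAC in WT hearts. These values are descriptions with no test.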
